A study of Mus musculus with 12 samples.

Results

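The Zfp genes are the mouse genes whose names join Zfp to a number and, in some cases, 1 letter. They were followed here through histone H3 lysine 27 acetylation (H3K27ac), which marks promoters and enhancers in use, in regenerating liver. Members were taken from the gene name that the deposited table gives each acetylated region, which is the nearest gene for a region outside genes, and 6 names that start with Zfp36 were left out. This gave 493 of 36387 regions, belonging to 244 of 11240 gene names. A promoter region, here one that the table annotates within 1 kb of a start site, was present for 212 of these genes, and where a gene had several, the one with the most signal stands for it. Chromosome 16 was not analysed here.

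The groups were 3 H3K27ac libraries of Cox10-/- regenerating liver and 3 of wild-type regenerating liver. Cox10 encodes a heme A synthesis enzyme that assembly of cytochrome c oxidase, complex IV of the respiratory chain, depends on. All mice carried floxed Cox10 and received 1 retro-orbital dose of AAV8-Cre or AAV8-GFP, a liver-directed virus, and the design text ties recombination in liver to AAV8-Cre. A 70% partial hepatectomy followed after 4 weeks and livers were taken on day 2, so both genotypes were regenerating and neither was a resting liver. Spike-in chromatin was added before immunoprecipitation, and 6 input libraries were not used. The labels do not say whether libraries came from separate animals, and libraries of 1 genotype differed by little more than counting error: the chi-square statistic of their reads, divided by its degrees of freedom, was 1.06 to 1.12 for Cox10-/- pairs and 1.16 to 1.19 for wild-type pairs, against 10.2 to 10.6 for pairs of unlike genotype. The p-values therefore measure only the spread between these libraries, which may be technical.

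Most Zfp proteins bind DNA through tandem zinc fingers, and they form a very large family of mammalian transcription factors. Many carry a KRAB domain, which recruits the corepressor Trim28 and, through it, the histone methyltransferase Setdb1 and heterochromatin proteins to silence retroelements and imprinted genes. Many KRAB zinc finger genes arose by tandem duplication and lie in clusters. Other members are activators, co-regulators, RNA-binding proteins or differentiation factors.

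Acetylation of the Zfp genes was lower in Cox10-/- livers nearly throughout, as it was at most genes. The promoter region passed the test in the lower direction for 203 of 212 Zfp genes (95.8%, against 93.8% of all 9663 promoter genes) and in the higher direction for none (against 0.807%). The median log2 change was -0.82, a 1.77-fold lower signal, and it was -0.82 over all promoter genes too. Centring every library on its median region takes out the fall of the typical region. On that scale 14 of 212 Zfp promoters were lower and 97 higher, against 15.4% lower and 49.2% higher of all promoter genes. Falls of up to 10.3-fold lay away from the main promoters, in regions named for Zfp536 and Zfp707 and in introns of Zfp395. At main promoters the largest were 4.98-fold, at Zfp101, and 4.47-fold, at Zfp444. Log2 changes below -1.5 were found at 37.2% of Zfp regions away from promoters, close to the 38.9% of all such regions. The few rises lay in introns of Zfp652, Zfp608 and Zfp385b and in a region that the table annotates 2 to 3 kb from the start of Zfp746.

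Promoter sequences are shown for 4 members: Zfp444 with a deep fall, Zfp655 and Zfp13 with small ones and Zfp62 with the highest acetylation of all Zfp promoters. Each is the 250 bases before the start site in RefSeq on GRCm38.p6, the build that mm10 corresponds to, 5′ to 3′ on the gene's strand, with matches to 9 searched motifs in capitals. The Zfp444 window is chr7:6172263-6172512 on the plus strand, the Zfp655 window chr5:145231492-145231741 on the plus strand, the Zfp13 window chr17:23599488-23599737 on the minus strand and the Zfp62 window chr11:49203042-49203291 on the plus strand.
Zfp444: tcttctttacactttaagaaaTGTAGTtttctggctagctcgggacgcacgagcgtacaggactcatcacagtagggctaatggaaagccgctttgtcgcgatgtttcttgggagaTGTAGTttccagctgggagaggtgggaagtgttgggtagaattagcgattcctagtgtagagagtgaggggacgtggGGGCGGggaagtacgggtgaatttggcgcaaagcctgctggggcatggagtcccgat
Zfp655: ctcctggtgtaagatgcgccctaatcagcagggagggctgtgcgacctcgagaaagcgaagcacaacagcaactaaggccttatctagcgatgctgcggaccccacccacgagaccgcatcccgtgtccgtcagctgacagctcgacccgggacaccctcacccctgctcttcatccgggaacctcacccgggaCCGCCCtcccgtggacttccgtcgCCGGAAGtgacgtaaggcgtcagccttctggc
Zfp13: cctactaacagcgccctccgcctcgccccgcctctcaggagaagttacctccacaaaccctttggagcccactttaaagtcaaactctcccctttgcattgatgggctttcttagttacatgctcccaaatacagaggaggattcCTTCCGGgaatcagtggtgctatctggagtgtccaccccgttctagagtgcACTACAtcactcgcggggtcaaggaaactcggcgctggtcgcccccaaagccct
Zfp62: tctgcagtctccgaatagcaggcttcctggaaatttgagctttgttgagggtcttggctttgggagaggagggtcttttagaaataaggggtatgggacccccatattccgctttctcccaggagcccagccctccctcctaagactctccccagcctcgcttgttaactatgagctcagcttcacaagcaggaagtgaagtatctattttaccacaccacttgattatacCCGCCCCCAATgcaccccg
The Zfp444 window holds the letters ACTACA on the opposite strand at 2 places, written there as TGTAGT, and 1 GGGCGG. Zfp13 holds ACTACA and the ETS letters CCGGAAG, Zfp655 holds CCGGAAG and GGGCGG, and Zfp62 holds GGGCGG and CCAAT, each counted on either strand. The windows of Zfp2 and Zfp30, with deep falls, and of Zfp617, with a small one, were searched too and are not printed. They hold no ACTACA, so the 4 printed windows do not show how common it is.

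Start sites of RefSeq lay within 1 kb of the centre of the promoter region for 165 Zfp genes, and 133 of these region centres lay after the start site, at a median of 0.22 kb. The sequence that stood out among these windows was ACTACA, part of the site bound by ZNF143, a general promoter activator whose mouse gene, Zfp143, is itself a member. It occurred on either strand in 24.8% of the 165 Zfp promoters, in 10.2% of 6603 promoters with an acetylated region matched in the same way and in 9.41% of 17492 protein-coding promoters. The GC box GGGCGG, bound by SP and KLF factors, was in 44.8% of Zfp promoters, against 63.3% of acetylated promoters and 42.7% of protein-coding ones. The Zfp windows were less rich in G and C than acetylated promoters at large, with a median of 55.2% against 61.2%, and held a median of 12 CpG against 18. The CCAAT box was in 44.8% of Zfp promoters, against 36% of acetylated promoters and 36.3% of protein-coding ones. ATGGCG, the core letters of the YY1 motif, was in 12.7%, against 9.89% and 6.47%. The other motifs were close to the share in acetylated promoters: CCGGAAG in 17.6% against 16.4%, GCGCATGC of NRF1 in 5.45% of both, the CRE TGACGTCA in 3.03% of both, the E-box CACGTG in 7.27% against 8.86% and TATAAA in 4.85% against 5.74%. Matches to different motifs can share bases. The median log2 change of acetylation was -0.87 in the 41 promoters with ACTACA and -0.80 in the 124 without, a difference that was not tested. A match is only a run of letters, and binding was not measured.

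**Figure D1:**
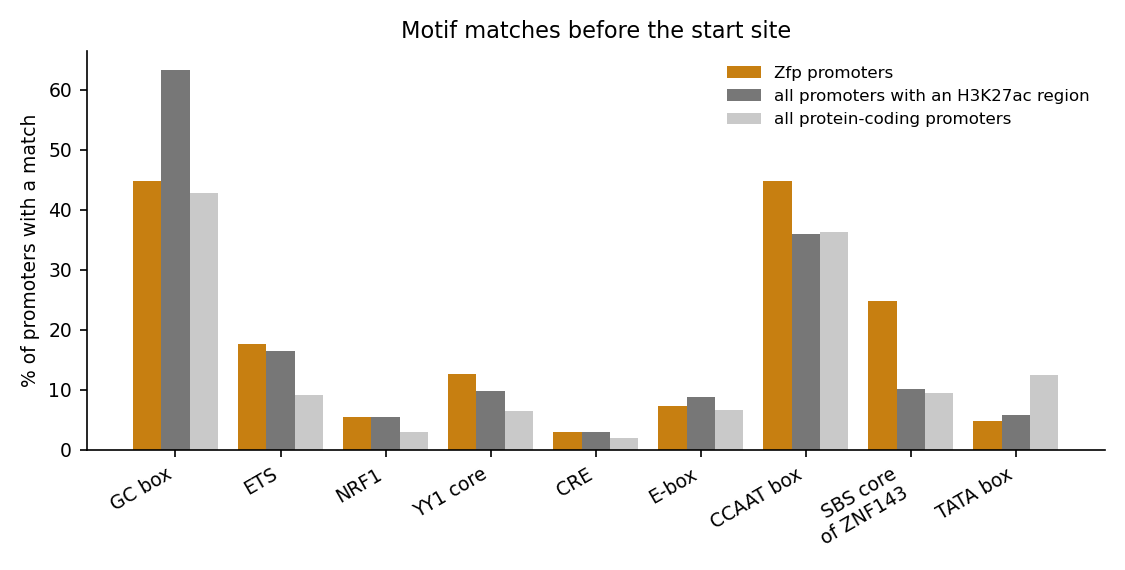
Share of promoters, in percent, with at least 1 match to each motif on either strand in the 250 bases before the start site, for Zfp promoters (n = 165), all promoters with an H3K27ac region (n = 6603) and all protein-coding promoters (n = 17492). The SBS core of ZNF143 is at 24.8% in Zfp promoters, against 10.2% and 9.41%, and the GC box at 44.8%, against 63.3% and 42.7%.

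The table holds whole reads divided by 1 size factor per library, called normalised reads here. Reads in regions numbered 3282878 to 3385453 in the Cox10-/- libraries and 3897454 to 4187377 in the wild-type libraries, of which 45081 to 46043 and 50757 to 54557 were in Zfp regions. On this scale H3K27ac was lower in Cox10-/- livers across the genome: 87.2% of all 36387 regions were called lower and 4.46% higher (limma on log2 of the value plus 1, Benjamini-Hochberg adjusted p under 0.05 over all regions). Since so much moved in the same direction, another scale is given beside the first, in which the median region of every library is set to 0. This adds 1.05 to every log2 change, so that values above 0 mean a smaller fall than that of the typical region, and on it 32.4% of all regions were lower and 33.6% higher. Signal at the promoters of 8 hepatocyte marker genes fell too, to a sum of 1399 to 1627 normalised reads in Cox10-/- libraries, against 5100 to 5273 in wild-type libraries. Promoter regions were present for 1 of 9 macrophage markers (Cd14, with 284 to 341 normalised reads in Cox10-/- and 140 to 142 in wild-type libraries), for 1 of 5 biliary markers (Sox9, with 43.9 to 62.1 and 52.0 to 67.7), for 1 of 3 red cell markers (Klf1, with 127 to 144 and 226 to 237) and for none of the endothelial, stellate or T and B cell markers. In bulk liver, fewer cells of a type and less acetylation per cell cannot be told apart, and the part of cell makeup in the Zfp results was not tested.

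Over all 493 Zfp regions the summed signal was 38363, 37160 and 34154 normalised reads in the Cox10-/- libraries, against 71676, 69516 and 69729 in the wild-type libraries. All Cox10-/- sums lay below all wild-type sums, and the mean was 48.0% lower, where the sum over all regions was 50.4% lower. The Zfp regions took a slightly larger share of the signal, 1.367 ± 0.0066% in Cox10-/- libraries and 1.302 ± 0.00049% in wild-type libraries (SD, n = 3 each). Of the 493 regions, 458 were lower, 9 higher and 26 not called, with a median log2 change of -0.91, against -1.04 over all regions. On the centred scale 108 Zfp regions were lower and 171 higher, against 32.4% lower and 33.6% higher of all regions. The authors' deposited table, at an adjusted p under 0.05, calls 444 Zfp regions lower and 7 higher. Over all 36387 regions it calls 30858 lower and 1301 higher.

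Promoters made up 61.9% of Zfp regions, against 43.9% of all regions, so the family was marked mostly at gene starts. A region was present for 243 of 383 RefSeq protein-coding genes with such names (63.4%), and for 9714 of 20952 protein-coding genes in all (46.4%). Most members, 145 of 244, had a single region, 52 had 2 and 20 had 5 or more. At promoters the Zfp regions were also smaller and weaker than those of other genes, with a median width of 501 bases against 651 and a median signal over the 6 libraries of 114 normalised reads against 143.

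The median Zfp promoter had 84.1, 83.1 and 74.2 normalised reads in the Cox10-/- libraries, against 147, 147 and 141 in the wild-type libraries. No Zfp promoter was higher at an unadjusted p under 0.05 either, in limma, and edgeR with the deposited size factors also called 0 higher, while only 2 of 212 had a log2 change above 0. All 3 Cox10-/- libraries lay below all 3 wild-type libraries at 195 Zfp promoters, where 93% of promoter genes did so, and groups overlapped at the other 17. The median log2 change was -0.82 for Zfp promoters and -0.82 for all promoter genes. The Zfp promoters differed less from one another, with an SD over genes of 0.35 against 0.53 and an interquartile range of -0.99 to -0.65 against -1.10 to -0.61. Families with similar zinc fingers, described below, had a narrow spread too. Falls deeper than -1.5 were found at 8 Zfp promoters (3.77%), against 9.95% of promoter genes, and changes above -0.5 at 28 (13.2%), against 15.5%. The share called lower, 95.8% against 93.8%, is close to the background and is not a result about the family. On the centred scale 14 Zfp promoters were lower and 97 higher, against a background of 15.4% lower and 49.2% higher. The authors' deposited table calls 195 Zfp promoters lower and 0 higher, and 8862 lower and 58 higher of all 9663 promoter genes.

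**Figure D2:**
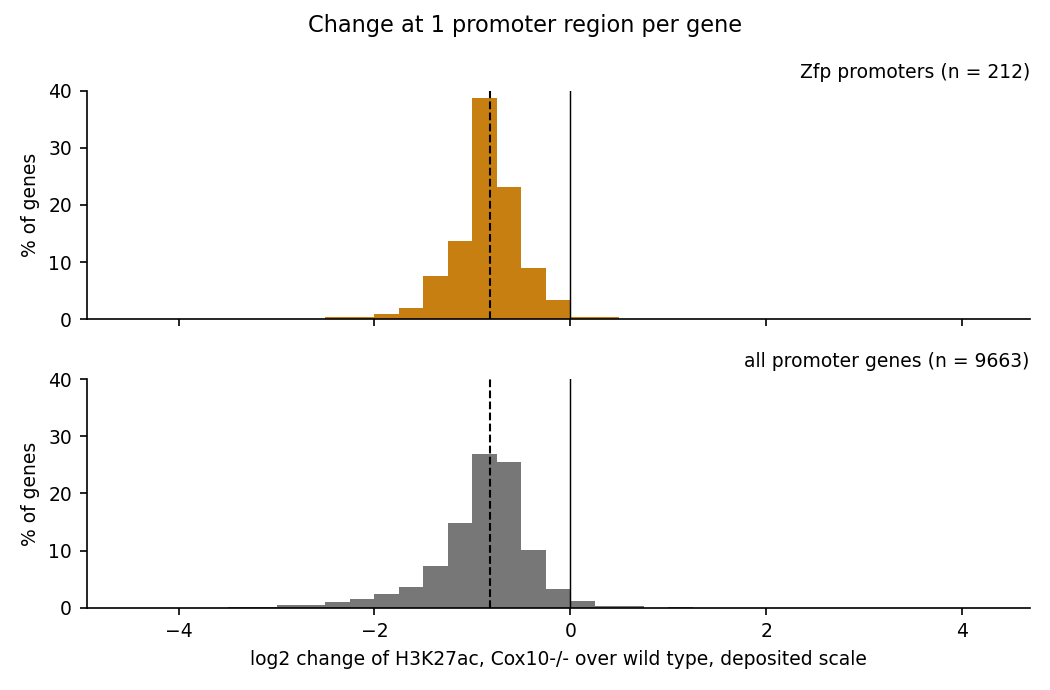
Histograms, in percent of genes per bin, of the log2 change of H3K27ac at 1 promoter region per gene, Cox10-/- over wild type on the deposited scale, for Zfp promoters (n = 212, top) and all promoter genes (n = 9663, bottom); dashed lines mark medians. Both medians are -0.82, which centring on the median region turns to 0.23, and the Zfp promoters are spread less widely.

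Families with similar zinc fingers are set beside the Zfp genes. Zbtb genes, which join a BTB domain to zinc fingers, were lower at 31 of 31 promoters with a median log2 change of -0.85. Zscan and Zkscan genes, which carry a SCAN domain, were lower at 12 of 12 with a median of -0.78. Both counts are near the 93.8% of all promoter genes called lower, whose median log2 change was -0.82. On the centred scale 3 Zbtb promoters were lower and 16 higher, and 1 Zscan or Zkscan promoter was lower and 6 higher. Of all promoter genes, 15.4% were lower and 49.2% higher on that scale. The SD over genes of the log2 change was 0.28 for Zbtb promoters and 0.25 for Zscan and Zkscan promoters. It was 0.35 for Zfp promoters and 0.53 for all promoter genes, so a narrow spread was not seen in the Zfp genes alone. No difference between these families and the Zfp genes was tested.

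The strongest Zfp promoter was that of Zfp62 (chr11:49202028-49204287), whose window is printed above. It held 511, 501 and 434 normalised reads in Cox10-/- livers, against 875, 752 and 872 in wild-type livers. The groups do not overlap, and the log2 change was -0.79 (SE 0.08, limma adjusted p 7.0e-20), or 0.26 on the centred scale. Zfp768 followed with 439, 443 and 430 normalised reads in Cox10-/- livers, against 700, 729 and 720 in wild-type livers. Its libraries agreed closely within each genotype and the log2 change was -0.71, or 0.34 centred. Zfp710 held 367, 329 and 305 in Cox10-/- livers, against 746, 709 and 726 in wild-type livers, a log2 change of -1.13 that stays just below 0, at -0.07, when centred. Zfp787 held 356, 359 and 333 in Cox10-/- livers, against 716, 688 and 680 in wild-type livers, with a log2 change of -0.99, or 0.06 centred. Zfp646 held 363, 363 and 319 in Cox10-/- livers, against 567, 582 and 566 in wild-type livers, with a log2 change of -0.72, or 0.34 centred, and its promoter region lies in part over the neighbouring gene Zfp668. None of these 5 promoters overlaps between genotypes.

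**Figure D3:**
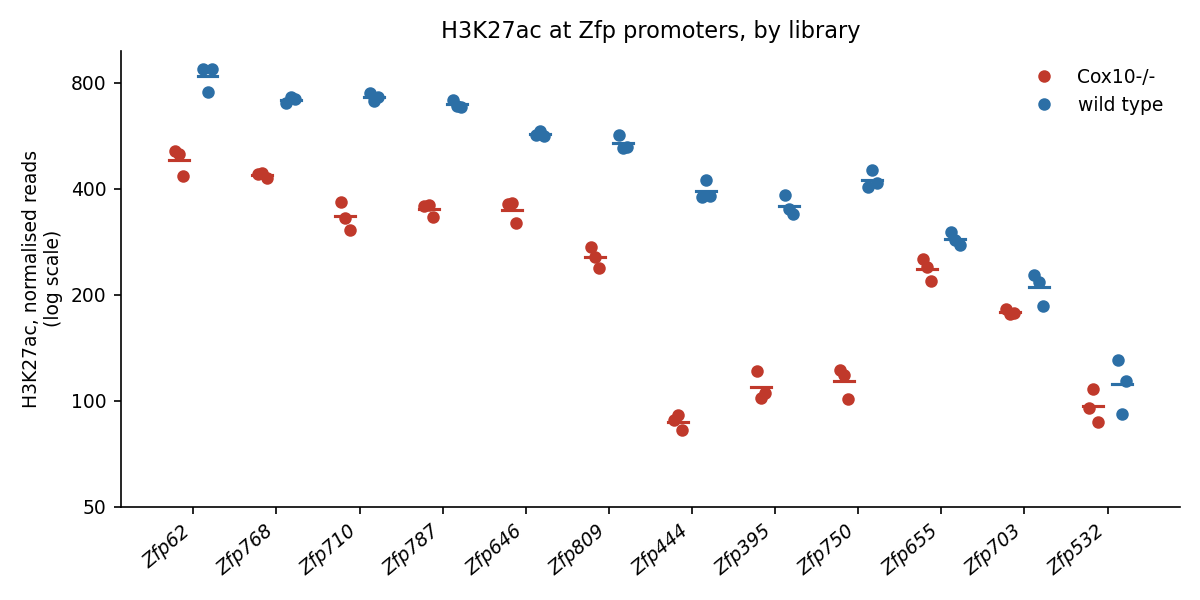
H3K27ac in normalised reads (log axis) at 12 Zfp promoters in each of 3 Cox10-/- libraries (left, red) and 3 wild-type libraries (right, blue), with the mean as a bar. The groups are apart at Zfp62, Zfp444 and Zfp750, lie close at Zfp655 and Zfp703 and overlap at Zfp532; centring each library turns the direction at Zfp62, Zfp768, Zfp787, Zfp646, Zfp655, Zfp703 and Zfp532.

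Of 17 members listed as known or presumed silencers, 6 had a promoter region, and 5 of these fell (83.3%, against 93.8% of all promoter genes). The median log2 change of the 6 was -0.91, against -0.82 over all promoter genes. With so few members, the count says nothing particular to the list. Zfp809, which recruits Trim28 to silence retroviruses, held 273, 256 and 239 normalised reads in Cox10-/- livers, against 569, 520 and 527 in wild-type livers. Its log2 change was -1.07 (limma adjusted p 5.9e-26), or -0.02 centred, so it fell as much as the typical region. Zfp568, known in mouse as a repressor of a placental Igf2 transcript, held 260, 240 and 214 in Cox10-/- livers, against 412, 427 and 408 in wild-type livers, a log2 change of -0.81, or 0.25 centred. The member not called was Zfp57, which protects imprints in the early embryo. It was weakly marked, with 34.8, 23.4 and 18.9 in Cox10-/- livers, against 22.6, 16.4 and 17.9 in wild-type livers, and the groups overlap (limma adjusted p 0.20). On the centred scale none of the 6 was lower and 3 were higher, against 15.4% lower and 49.2% higher of all promoter genes.

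Genes of the machinery that KRAB proteins recruit had lower promoter acetylation too. All 24 promoters found for 29 listed cofactors were called lower, near the 93.8% of all promoter genes, with a median log2 change of -0.86, against -0.82 over all promoter genes. On the centred scale none of the 24 was lower and 11 were higher, against 15.4% lower and 49.2% higher of all promoter genes. Trim28, the corepressor itself, held 87.5, 101 and 97.7 normalised reads in Cox10-/- livers, against 235, 222 and 219 in wild-type livers. The groups are far apart, with a log2 change of -1.23 (limma adjusted p 9.1e-21), or -0.18 centred, where it is not called (adjusted p 0.12). Cbx3, a heterochromatin protein, had a log2 change of -0.97, or 0.09 centred, and Ehmt1, a histone H3 lysine 9 methyltransferase, one of -1.13, or -0.07 centred. Setdb1 held 69.7, 64.6 and 51.5 in Cox10-/- livers, against 146, 107 and 116 in wild-type livers, with a log2 change of -0.98, or 0.07 centred.

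Members that act in transcription and chromatin had a smaller median fall than promoter genes at large. Of 24 listed, 17 had a promoter region and 16 fell (94.1%, near the background of 93.8%). Their median log2 change was -0.65, against -0.82 over all promoter genes. On the centred scale none of the 17 was lower and 14 were higher, against 15.4% lower and 49.2% higher of all promoter genes. No test of these differences was made. The log2 changes of the 17 ran from -1.13, at Zfp710 described above, to -0.44. The list's smallest adjusted p in limma were those of Zfp710 and Zfp217, both with deeper falls than the median promoter gene. Zfp143 and Zfp746 are described besides. Zfp143 held 256, 231 and 213 normalised reads in Cox10-/- livers, against 358, 371 and 366 in wild-type livers, a log2 change of -0.65, or 0.40 centred, and all 7 of its regions were lower. Zfp217, whose human counterpart is a corepressor amplified in breast cancer, held 178, 169 and 170 in Cox10-/- livers, against 353, 389 and 311 in wild-type livers, with a log2 change of -1.02, or 0.04 centred. Zfp746, also called PARIS, a repressor of Ppargc1a and a parkin substrate, held 273, 271 and 223 at its promoter in Cox10-/- livers, against 368, 327 and 340 in wild-type livers, with a log2 change of -0.44, or 0.62 centred. The member not called was Zfp518b, with 22.0 to 37.4 in Cox10-/- and 32.9 to 42.6 in wild-type livers (limma adjusted p 0.069); without replicate 1 of the Cox10-/- livers it was called lower (log2 change -0.68, adjusted p 0.015).

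All 12 promoters of the 13 listed members with roles in RNA, ribosomes and cell division fell, where 93.8% of all promoter genes did, with a median log2 change of -0.80, against -0.82. Centred, 1 of the 12 was lower and 7 were higher, against 15.4% lower and 49.2% higher of all promoter genes. The deepest in this list was Zfp385b, with 70.5, 67.8 and 54.5 normalised reads in Cox10-/- livers, against 218, 207 and 248 in wild-type livers. Its log2 change of -1.79 (limma adjusted p 8.2e-32) also passed on the centred scale, at -0.74. Zfp706, which helps mouse embryonic stem cells leave self-renewal, held 218, 226 and 199 in Cox10-/- livers, against 451, 411 and 358 in wild-type livers, with a log2 change of -0.92, or 0.14 centred.

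The differentiation members had the widest spread of the 4 role lists. Of 12 listed, 7 had a promoter region, 5 fell (71.4%, against 93.8% of all promoter genes) and 2, Zfp423 and Zfp57, were not called, with an SD over genes of 0.86, against 0.35 for all Zfp promoters. At the ends of this spread stand Zfp750, at a log2 change of -1.89, and Zfp57, described above among the silencers, at 0.39. Zfp750, a regulator of epidermal differentiation, held 122, 119 and 102 normalised reads in Cox10-/- livers, against 406, 452 and 415 in wild-type livers. This is a 3.70-fold lower signal, with a log2 change of -1.89 (limma adjusted p 3.7e-45), or -0.84 centred, and the region also overlaps Tbcd, so the mark cannot be given to 1 of the 2 genes. Zfp703, a co-repressor known from breast cancer, held 183, 177 and 177 in Cox10-/- livers, against 227, 218 and 185 in wild-type livers. The groups lie close but do not overlap, and the log2 change of -0.23 was just past the threshold (limma adjusted p 0.038), was no longer called without replicate 2 of the Cox10-/- livers or replicate 1 or 2 of the wild-type livers (adjusted p 0.087, 0.18 and 0.12) and is 0.83 centred. Zfp423, a determinant of fat cell fate, held 64.6, 63.8 and 70.5 in Cox10-/- livers, against 70.5, 69.8 and 56.2 in wild-type livers, where the groups overlap (adjusted p 0.90).

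The promoters that moved least, among those no weaker than the median region (a mean of 74.8 normalised reads), were Zfp532, Zfp703 and Zfp655. Zfp532, on chromosome 18, held 95.2, 108 and 87.1 in Cox10-/- livers, against 130, 91.8 and 114 in wild-type livers. The groups overlap and it was not called (log2 change -0.20, adjusted p 0.15), although it was called lower without replicate 2 of the wild-type livers (log2 change -0.33, adjusted p 0.030). Zfp655 (chr5:145231728-145232525) held 253, 240 and 218 in Cox10-/- livers, against 301, 286 and 277 in wild-type livers, with no overlap and a log2 change of -0.28 (adjusted p 0.0044), or 0.77 centred. Zfp13, printed above, held 85.8, 101 and 69.7 in Cox10-/- livers, against 94.5, 125 and 101 in wild-type livers. Its groups overlap, its log2 change was -0.32 (adjusted p 0.024), or 0.73 centred, and it was not called without replicate 3 of the Cox10-/- or replicate 2 of the wild-type livers (log2 change -0.19 and -0.21). Apart from Zfp57, Zfp423, Zfp518b and Zfp532, the promoters not called were Zfp202, Zfp37, Zfp697, Zfp316 and Zfp729a, named after their values were seen. Their log2 changes ran from -0.12 to -0.03 and their groups overlapped. Zfp202, whose human counterpart represses genes of lipid metabolism, held 50.1, 56.5 and 59.9 in Cox10-/- livers, against 62.5, 52.0 and 55.0 in wild-type livers. Of the 9 not called, 8 had a signal below the median of all regions. All 9 were called higher on the centred scale.

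The deepest falls among well-marked regions, those with a mean over all 6 libraries of at least 74.8 normalised reads, were found in a few genes. This mean includes the wild-type libraries, so the cut keeps regions strong in wild-type livers and weak in Cox10-/- livers. The 6 deepest had means of 20.7 to 70.7 in Cox10-/- livers, against 157 to 344 in wild-type livers. The medians over all regions were 48.4 and 101. At Zfp444, a SCAN zinc finger gene on chromosome 7, the main promoter region (chr7:6172696-6173979) held 88.4, 91.2 and 82.6 normalised reads in Cox10-/- livers, against 378, 423 and 382 in wild-type livers. This was 4.47-fold lower (log2 change -2.16, limma adjusted p 4.5e-50; -1.11 centred). A second promoter region of Zfp444 (chr7:6174260-6175398) held 61.2, 34.7 and 37.9 in Cox10-/- livers, against 310, 242 and 281 in wild-type livers, 6.28-fold lower, and all 5 regions of the gene were lower. At its neighbour Zfp787, a region 1 to 2 kb from the start (chr7:6157216-6157746) held 32.3, 29.9 and 35.6 in Cox10-/- livers, against 172, 164 and 134 in wild-type livers. That is 4.68-fold lower, where the promoter above was 1.98-fold lower. The promoter of Zfp101 had the largest fold of all Zfp promoters, 4.98-fold lower, at 22.9, 12.1 and 12.1 in Cox10-/- livers, against 74.5, 78.1 and 84.4 in wild-type livers; it lies under the median signal and is named after its values were seen.

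Away from promoters the median fall was deeper, and all 9 Zfp regions called higher lay here. The 188 Zfp regions that are not within 1 kb of a start site had a median log2 change of -1.17, against -1.28 over all such regions, and 168 were lower and 9 higher, 89.4% and 4.79%, where 83.2% and 6.96% of all such regions were. Of the 84 distal Zfp regions, limma called 81 lower (96.4%) and 0 higher, with a median of -1.07, against 83.2% lower, 6.9% higher and a median of -1.23 over all distal regions. It called lower all 6 Zfp regions in 3′ untranslated regions, with a median of -1.98, against 82.8% and -1.37 over all regions of that class. Introns held 54 Zfp regions, 42 lower (77.8%) and 8 higher (14.8%), with a median of -1.45, against 81.5% lower, 8.06% higher and a median of -1.28 over all intron regions. Several regions can belong to 1 gene: the 6 came from 3 genes, the 54 from 18 and the 84 from 44. None of these differences between classes was tested. Of the 188, on the centred scale, 76 were lower and 49 higher, against 8786 lower and 5487 higher of all 20407 such regions. Among the 99 members with more than 1 region, the log2 changes of the regions of 1 gene spanned a median of 0.56.

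The lowest log2 change of any member region was at a distal site named for Zfp536, a repressor of neuronal differentiation. This region (chr7:37143124-37143932) held 22.9, 18.6 and 20.5 normalised reads in Cox10-/- livers, against 223, 212 and 229 in wild-type livers. It was 10.3-fold lower (log2 change -3.37, limma adjusted p 1.1e-53; -2.31 centred), and all 5 regions named for the gene fell. The centre of the site lies 626 kb from the Zfp536 start, and its edge lies 370 kb from the next gene, Tshz3. The first distance is to a start site and the other to the nearest part of a gene, so they cannot be compared. The gene that the site acts on was not tested. Zfp536 has no promoter region in the table.

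At Zfp707 a region 2 to 3 kb from a start (chr15:75965839-75966869) held 31.4, 27.4 and 29.5 in Cox10-/- livers, against 323, 299 and 303 in wild-type livers, 10.2-fold lower (log2 change -3.34, limma adjusted p 1.3e-62; -2.29 centred). The main promoter of the gene, with 70.5, 91.2 and 96.2 in Cox10-/- livers, against 254, 238 and 249 in wild-type livers, fell less, by 1.52 on the log2 scale. All 10 of its regions were lower, with log2 changes from -3.34 to -1.07. Zfp825 had 12 regions, all lower, and no promoter region within 1 kb. Its strongest fall among well-marked regions was at a distal site before the start, at -6.70 kb (chr13:74500120-74501211), with 86.7, 69.4 and 56.1 in Cox10-/- livers, against 343, 320 and 367 in wild-type livers.

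Zfp395, whose human counterpart was found as a factor binding papillomavirus promoters, had the most regions of any member, 16, and all were lower. Its promoter (chr14:65358386-65359469) held 122, 102 and 105 normalised reads in Cox10-/- livers, against 383, 349 and 340 in wild-type livers, a log2 change of -1.70, or -0.65 centred. In its first intron a region (chr14:65378853-65379726) held 28.0, 33.9 and 24.2 in Cox10-/- livers, against 177, 171 and 183 in wild-type livers. That intronic region was 6.04-fold lower (log2 change -2.59, limma adjusted p 1.1e-39; -1.54 centred), against 3.25-fold at the promoter. Zfp710, with 10 regions that were all lower, had a first-intron region about as strong as its promoter, with 381, 387 and 323 in Cox10-/- livers, against 673, 727 and 690 in wild-type livers (log2 change -0.94, or 0.11 centred).

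**Figure D4:**
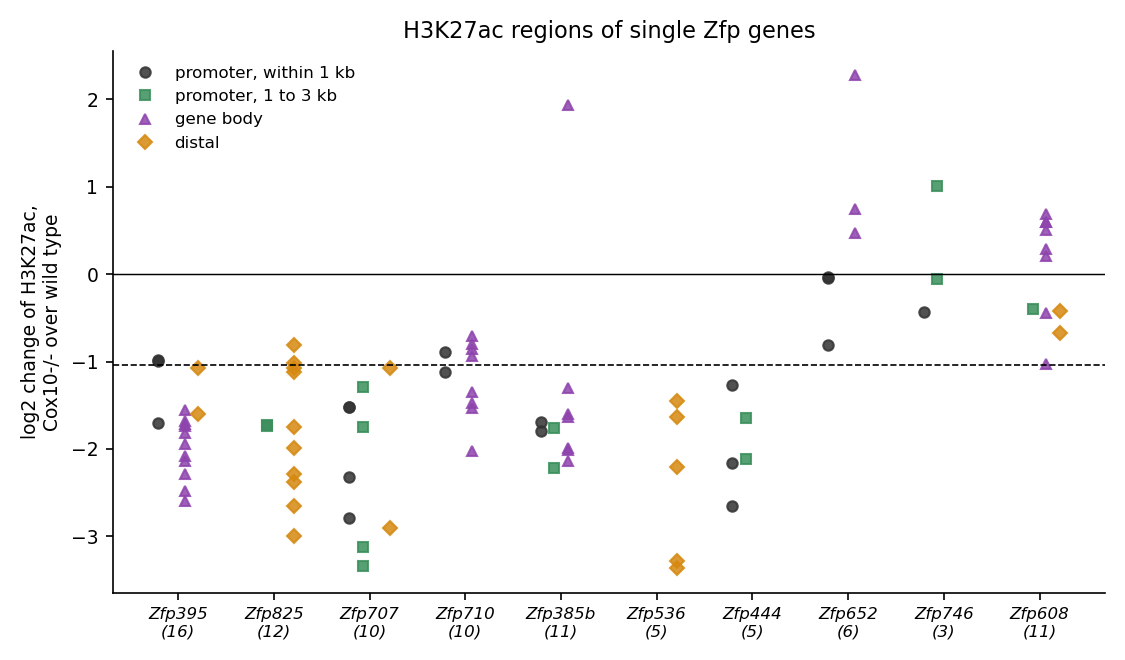
Log2 change of H3K27ac, Cox10-/- over wild type on the deposited scale, for every region of 10 Zfp genes (number of regions in brackets), by where the region lies; the dashed line is the median of all regions, -1.04, which becomes about 0 when libraries are centred. Regions of Zfp395, Zfp825, Zfp707 and Zfp536 all lie below 0, and the regions above 0 are in Zfp385b, Zfp652, Zfp746 and Zfp608.

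All 9 member regions called higher had a mean over the 6 libraries below that of the median region, 74.8 normalised reads. Limma called higher none of the 255 Zfp regions at or above it, also at an unadjusted p under 0.05. Neither did edgeR with the deposited size factors. This mean includes the wild-type libraries, so low wild-type values can keep a rising region under the cut. In the Cox10-/- libraries alone the 9 regions had means of 39.7 to 68.3. These lie on both sides of the median over all regions there, 48.4. The 9 regions are described here after their values were seen. Zfp652, whose human counterpart is a repressor that works with the CBFA2T3 corepressor, had 3 of them in intron 5. The farthest from the start held 46.7, 39.5 and 40.2 normalised reads in Cox10-/- livers, against 7.98, 6.85 and 8.95 in wild-type livers. This is a log2 change of 2.28 (limma adjusted p 3.9e-11), at 52.1 kb from the start. Another, at 28.6 kb, held 79.9, 63.0 and 62.1 in Cox10-/- livers, against 45.2, 41.1 and 34.5 in wild-type livers (log2 change 0.75). The call of the region beside it, with a log2 change of 0.47, was lost without replicate 1 of the wild-type livers (0.32, adjusted p 0.13) or replicate 2 of the Cox10-/- livers (0.44, adjusted p 0.056). The promoter region of Zfp652 fell in the same libraries, to 95.4 ± 18.1 normalised reads in Cox10-/- livers, against 167 ± 18.9 in wild-type livers (SD, n = 3 each). It is annotated within 1 kb of a start, but its centre lies at -35.6 kb from the RefSeq start used for the distances above.

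Zfp608, a paralogue of Zfp609, had 4 rising regions side by side in intron 2 on chromosome 18, with log2 changes of 0.51 to 0.68 and adjusted p of 0.0021 to 0.0085 in limma. The first of them held 51.0, 45.2 and 58.3 in Cox10-/- livers, against 33.3, 37.0 and 30.7 in wild-type livers. Of these 4 regions, 1 was not called without wild-type replicate 1 and another without wild-type replicate 3 (log2 changes 0.34 and 0.40, adjusted p 0.096 and 0.076). Of the other 7 regions 4 fell and 3 were not called, and the strongest, 1 to 2 kb from the start, held 354, 341 and 330 in Cox10-/- livers, against 462, 455 and 438 in wild-type livers (log2 change -0.40, or 0.65 on the centred scale). Zfp385b had a single rising region among 10 falling ones. It lies in intron 2, 21.1 kb after the start, with 45.9, 31.5 and 41.7 in Cox10-/- livers, against 13.3, 12.3 and 5.11 in wild-type livers (log2 change 1.93, limma adjusted p 6.9e-09). At Zfp746 the region annotated 2 to 3 kb from the start, whose centre lies 3.07 kb after the RefSeq start, held 63.7, 59.7 and 61.4 in Cox10-/- livers, against 23.9, 37.0 and 30.7 in wild-type livers (log2 change 1.01, limma adjusted p 1.0e-06), beside a promoter that fell. The 9 rises were called on the centred scale as well.

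Zfp promoters in and outside chromosome clusters are set side by side here, and no difference between them was tested. Runs of at least 3 member genes with gaps of at most 250 kb made 16 clusters with 89 promoter genes, of which 88 were lower (98.9%) with a median log2 change of -0.85. Outside clusters 115 of 123 were lower (93.5%) with a median of -0.80, and the share over all promoter genes was 93.8%. Cluster medians ran from -0.53, in the 3 genes from Zfp119a to Zfp119b on chromosome 17, to -1.26, in the 4 genes from Zfp879 to Zfp354a on chromosome 11. The largest cluster had 14 genes on chromosome 13, from Zfp712 to Zfp65, with 13 lower and a median of -0.84. Chromosome 7 held 50 Zfp promoters, all called lower by limma. Their median log2 change was -0.85, against -0.83 over all promoter genes of that chromosome. On the centred scale 4 of the 50 were lower and 19 higher, against 15.4% and 49.2% of promoter genes on all chromosomes. Of the 16 cluster medians 12 lie above 0 when centred, where the median of all promoter genes is itself 0.23.

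Genes with the same number and different letters may be near copies that share reads, so their values are uncertain. Zfp729a and Zfp729b were among the least changed, with log2 changes of -0.12 and -0.34, and Zfp119a and Zfp119b had -0.53 and -0.59. Zfp874a and Zfp874b had -0.95 and -0.85, Zfp955a and Zfp955b -1.27 and -0.97, and Zfp354a and Zfp354b, related to the kidney factor Kid1, -1.01 and -1.17. The genes of each of these pairs lie on 1 chromosome, while Zfp280b on chromosome 10 and Zfp280d on chromosome 9 do not, and they had -0.93 and -1.23.

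**Figure D5:**
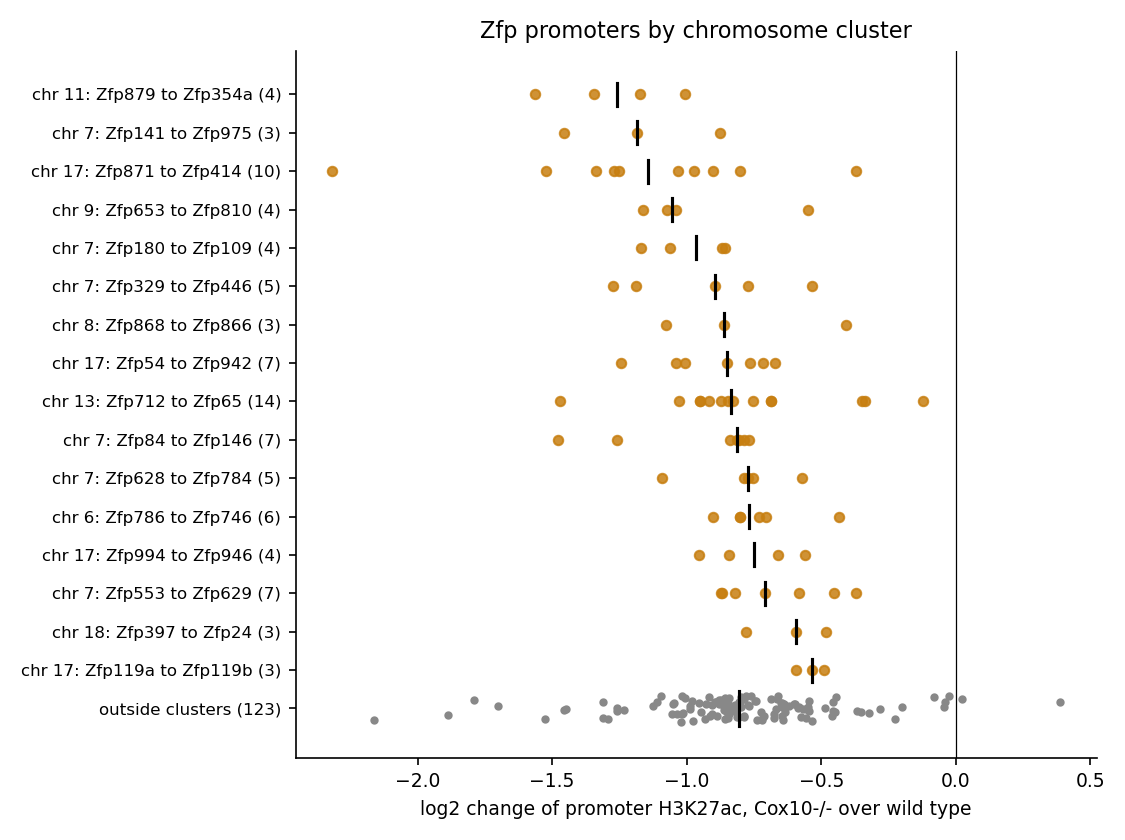
Log2 change of promoter H3K27ac, Cox10-/- over wild type on the deposited scale, for each Zfp promoter gene in 16 chromosome clusters (number of genes in brackets) and for 123 outside clusters; each point is a gene and black bars are medians. Medians run from -1.26 to -0.53 and all but 2 points lie below 0, while centring each library adds 1.05 to every value.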

How the data were processed

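Per the submitters' processing notes, reads were handled with BWA 0.7.5, MACS and deepTools 3.5.0 on mm10; the roles of these tools, and how regions were joined over samples, are not given in the sources used here. Signal values deposited by the authors are whole reads per region over a size factor for the library: multiplied back, 100% were whole to within 0.01 reads, with size factors of 1.18, 1.24 and 1.32 for the Cox10-/- and 0.752, 0.730 and 0.782 for the wild-type libraries. How the authors set the factors is not given here, and any error in them shifts every region of a library alike. The authors also deposited a log2 fold change, a test statistic (a score) and p-values per region; these are quoted only as theirs. Dropping 59 repeated rows left 36387 regions.

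From the deposited values, limma 3.58.1 in R 4.3.3 was fitted to log2(value + 1) over all regions with a variance trend and Benjamini-Hochberg adjustment, threshold 0.05, 3 libraries against 3; a fold on this scale understates changes at weak regions. No count model was the main test because the table holds normalised values. The recovered reads tested with edgeR 4.0.16 and with DESeq2 1.42.0, other pseudocounts (0.5 and 5), a filter on means under 10, median centring, a replicate block and leaving out each library were the alternatives, and the procedure was tested on simulated data. Named regions were the 6 largest folds in each direction at or above the median level (no such region was higher), the 5 strongest promoters, the 3 strong promoters nearest to 0, the promoters of the 3 members with the most regions, the 2 smallest adjusted p per list and Trim28, with the regions of the printed sequences. All 244 names matched RefSeq. Counting zinc fingers and KRAB letters in the proteins was planned and not run. The members, lists and tests were chosen with earlier results of these data known. Intervals from reads cover counting error only.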

Additional observations from a re-analysis of the deposited data

How the results depend on the processing

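The direction of most promoter results depended on the scale. Centring each library on its median region, edgeR with TMM factors and DESeq2 with its own size factors gave 108, 110 and 92 Zfp regions lower (458 on the deposited scale) and 171, 169 and 128 higher (9), and 14, 14 and 10 Zfp promoters lower (203) and 97, 97 and 71 higher (0). Over all features on the centred scale, 32.4% of regions were lower and 33.6% higher, and 15.4% of promoter genes were lower and 49.2% higher. By construction these 3 scalings take out the shift of the typical region. Of 47 named regions 20 changed sign under each of the 3, to these log2 changes in the same order: Zfp62 (0.26, 0.26 and 0.26), Zfp768 (0.34, 0.34 and 0.35), Zfp787 (0.064, 0.063 and 0.067), Zfp646 (0.34, 0.34 and 0.34), Zfp532 (0.85, 0.84 and 0.84), Zfp703 (0.83, 0.82 and 0.83), Zfp655 (0.77, 0.77 and 0.77), Zfp568 (0.25, 0.25 and 0.25), Zfp217 (0.037, 0.032 and 0.034), Zfp706 (0.14, 0.13 and 0.13), Cbx3 (0.086, 0.086 and 0.089), Zfp13 (0.73, 0.73 and 0.73), Zfp143 (0.40, 0.40 and 0.41), Zfp746 (0.62, 0.62 and 0.62), Setdb1 (0.074, 0.054 and 0.059), Zfp202 (1.03, 1.03 and 1.04), Zfp518b (0.61, 0.61 and 0.62), Zfp652 (0.24, 0.23 and 0.24), Zfp608 1 to 2 kb (0.65, 0.65 and 0.65), Zfp710 intron (0.11, 0.11 and 0.11). The promoters of Zfp710, Zfp809, Ehmt1 and Trim28 kept a negative sign and were no longer called. Under pseudocounts of 0.5 and 5, the filter, edgeR with the deposited size factors, no variance trend, a threshold of 0.01 and another choice of promoter region, the 4 counts stayed within 1.5 times of those reported. Leaving out each library gave 449 to 456 Zfp regions lower, 8 to 9 higher, 198 to 203 promoters lower and 0 higher. Libraries with the same number did not deviate together (correlations of -0.00092, 0.0074 and 0.0054), so numbers were not taken to pair them, and the fit with the replicate block gave 458, 9, 203 and 0. Of the 9 rises, 7 kept their call without wild-type replicate 1 and 8 without wild-type replicate 3 or Cox10-/- replicate 2. Zfp423, not called, ranged from -0.083 to 0.078 when a library was left out and Zfp202 from -0.082 to 0.049. Near-identical gene copies, 3 libraries a group and weak marks limit precision.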

Other observations

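Zfp36, left out by name because it encodes tristetraprolin, an mRNA decay factor with another type of zinc finger, had a promoter stronger than that of any Zfp gene described. It held 766, 759 and 735 normalised reads in Cox10-/- livers, against 1560, 1556 and 1508 in wild-type livers (log2 change -1.03, limma adjusted p 3.7e-36), and its groups were far apart. The promoter of Zfp36l2, a related decay factor, held 577, 611 and 545 in Cox10-/- livers, against 1193, 1182 and 1049 in wild-type livers (log2 change -0.98). Zfp367, also outside the rule, had a weak promoter region that was called higher, with 45.04, 50.8 and 46.2 in Cox10-/- livers, against 31.9, 30.1 and 38.3 in wild-type livers (log2 change 0.49, limma adjusted p 0.019), beside a promoter region that fell, with 74.8, 70.2 and 65.2 in Cox10-/- livers, against 137, 160 and 153 in wild-type livers.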
